A study of Mus musculus with 19 samples.

Results

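The genes described here are 7 of the 25639 genes in each table: the receptor genes Tnfrsf4, Tnfrsf9, Tnfrsf18, Tnfrsf1b, Tnfrsf14 and Cd27, and the adaptor gene Traf1, taken by their names in the tables. RNA was sequenced from CD8 and CD4 T cells sorted on CD45, CD3ε, CD4 and CD8α from liver metastases of mice, 30 days after Venus-AKTPM/LOH colorectal cancer cells were injected into the spleen. Every animal carried floxed Tet2. Tet2fl/fl animals had no Cre and served as controls (3 CD8 and 3 CD4 libraries). Vav1CreTet2KO animals (3 and 3 libraries) carried a Cre driven by Vav1, which is active across blood cells, so that other leukocytes of the tumour also lost Tet2. Cd4CreTet2KO animals (4 and 3 libraries) carried a Cre driven by Cd4, which acts in T cells of both lineages because CD8 T cells pass through a Cd4-expressing stage in the thymus. Ages and strain backgrounds are not given in the labels. The title of the series sets the comparison in TET2-mutant clonal hematopoiesis, in which blood cells carrying a TET2 mutation expand.

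Receptors of the TNF receptor family are bound on activated T cells by TNF family ligands displayed on antigen-presenting cells and other T cells. Their tails recruit TRAF adaptor proteins, which pass the signal to NF-κB and to genes for survival and division. In tumours several of these receptors mark T cells that have recently met antigen, and OX40, GITR and TNFR2 are also abundant on regulatory CD4 T cells. Receptors of this group are targets of agonist antibodies.

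Library names tie the 19 libraries to 11 animals, and both cell types were sequenced from 8 of them. Reads on genes numbered 8189300 to 20327809 per CD8 library and 707866 to 17575534 per CD4 library. The smallest CD4 library was Vav1CreTet2KO replicate 1, in which 7761 genes had a read. Levels are in RPKM, reads scaled to gene length and to the size of the library, which allows levels of different genes to be compared per length. Cd8a stood at 99.9 to 230 RPKM in CD8 libraries and at no more than 0.792 RPKM in CD4 libraries. Cd8a and Cd8b1 summed to 231 to 427.6 RPKM in CD8 libraries and to as much as 8.01 RPKM in CD4 libraries. Cd4 was at 39.5 to 122.4 RPKM in CD4 libraries and at 0 to 7.68 RPKM in CD8 libraries. By these levels the sorted lineages matched their labels, with low levels of the other lineage's genes in some libraries. Markers of other cells differed with genotype in CD8 libraries. The summed level of 12 dendritic cell genes was 84.0 to 484 RPKM for Tet2fl/fl, 1101 to 3107 RPKM for Vav1CreTet2KO and 395 to 3173 RPKM for Cd4CreTet2KO, with 4 of the 12 called higher in Vav1CreTet2KO and 0 in Cd4CreTet2KO. The sum of 8 B cell genes was 0.256 to 3.61 RPKM in the controls against 5.19 to 15.5 RPKM and 5.37 to 25.3 RPKM in the same order. Blnk alone was at 0 to 0.169 RPKM in the controls, 3.10 to 13.4 RPKM for Vav1CreTet2KO and 1.33 to 8.59 RPKM for Cd4CreTet2KO. Of the 8 genes 4 were tested, with 1 called higher in Vav1CreTet2KO and 0 called in Cd4CreTet2KO. The sum of 7 NK cell genes was 16.8 to 51.7 RPKM in the controls against 56.5 to 256 RPKM and 32.0 to 129 RPKM. The sum of 12 macrophage genes was 279 and 145 RPKM for Cd4CreTet2KO replicates 1 and 2. It was 5.93 to 47.9 RPKM in the other CD8 libraries, Cd4CreTet2KO replicates 3 and 4 among them. Of 9 tested macrophage genes 0 were called in either knockout. Negative differences numbered 0 in Cd4CreTet2KO (median 0.82) and 4 in Vav1CreTet2KO (median 0.25). The part of these markers of other cells in the results below was not tested. CD8 Vav1CreTet2KO replicate 1 also stood apart in its counts, of which 50.6% of low values were odd against 13.1% to 30.7% elsewhere. Its reads may have been counted in another unit than those of the other libraries, which was not settled and would change what its recovered reads, and the edgeR and DESeq2 fits on them, mean. Tet2 itself was at 6.57 to 8.06 RPKM in CD8 Tet2fl/fl, 2.93 to 6.28 RPKM for Vav1CreTet2KO and 3.02 to 7.57 RPKM for Cd4CreTet2KO, a whole-gene value that does not resolve the deleted part.

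Of the genes, 5 lie on chromosome 4, in coordinates as the tables give them. The submitters' processing notes name GRCm38, which these coordinates do not match, so their build was not settled. Tnfrsf4 (ENSMUSG00000029075) spans 156098300 to 156101069 and Tnfrsf18 (ENSMUSG00000041954) spans 156110621 to 156113352, both on the plus strand. The nearest gene to Tnfrsf4 is Sdf4, 232 bases away on the same strand. The nearest to Tnfrsf18 is Gm37090, 3503 bases away on the minus strand. Tnfrsf9 (ENSMUSG00000028965) spans 150999019 to 151030559 on the plus strand and overlaps Camta1 on the minus strand. Tnfrsf14 (ENSMUSG00000042333) spans 155006390 to 155013020 and Tnfrsf1b (ENSMUSG00000028599) spans 144940033 to 144973440, both on the minus strand. Cd27 (ENSMUSG00000030336) lies on chromosome 6 at 125209585 to 125213973 on the minus strand and overlaps Vamp1 on the plus strand, and Traf1 (ENSMUSG00000026875) lies on chromosome 2 at 34831762 to 34851784 on the minus strand. The library kit marks strand, but the strand setting of the counting is not given, so that reads of Tnfrsf9 and Camta1, and of Cd27 and Vamp1, may not be fully separated.

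The start sites of the 3 receptors that fell most in CD8 cells are shown because these genes moved together. All 7 genes matched RefSeq windows (GRCm38.p6) that reach 250 bases upstream of the start, with 2 starts for Tnfrsf9. For Tnfrsf4 and Cd27, bases just downstream of the start were not found in an annotated transcript of the gene, so these starts were not settled. For the other starts they were found. Each line below gives the part of a window that lies outside annotated untranslated regions, 5′ to 3′ on the coding strand, with matches to the core NFAT motif (GGAAAA on either strand) in capitals.
Tnfrsf9, upstream start, chr4:150919905-150920154, plus strand: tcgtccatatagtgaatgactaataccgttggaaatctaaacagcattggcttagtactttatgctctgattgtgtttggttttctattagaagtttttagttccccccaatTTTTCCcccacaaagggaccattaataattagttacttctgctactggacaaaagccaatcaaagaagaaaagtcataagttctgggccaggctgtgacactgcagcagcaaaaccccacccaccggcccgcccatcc
Tnfrsf9, downstream start, chr4:150927749-150927917, plus strand: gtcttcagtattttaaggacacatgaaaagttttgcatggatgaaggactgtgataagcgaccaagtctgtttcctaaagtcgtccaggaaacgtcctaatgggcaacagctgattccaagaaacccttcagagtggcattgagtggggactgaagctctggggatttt
Tnfrsf4, chr4:156013611-156013694, plus strand: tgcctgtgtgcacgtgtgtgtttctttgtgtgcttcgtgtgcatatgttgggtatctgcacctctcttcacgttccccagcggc
Tnfrsf18, chr4:156026072-156026163, plus strand: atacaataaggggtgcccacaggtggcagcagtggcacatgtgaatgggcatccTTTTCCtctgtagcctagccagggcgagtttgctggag

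Over whole windows, 3 motifs of factors of T cell activation were searched on both strands: the κB consensus of NF-κB, AP-1 (TGANTCA) and the NFAT core. The downstream Tnfrsf9 window held 1 κB stretch that begins 43 bases before the start with GGGGATTTCC, and 1 AP-1 match, TGAGTCA, that begins 15 bases before it. Both lie in an annotated untranslated region, outside the letters shown. None of the windows of the other 6 genes held either of these motifs. Among all 32851 windows of this length, 3.9% held the κB consensus, 6.75% AP-1 and 20.4% the NFAT core. The NFAT core was found in windows of Tnfrsf9 (upstream), Tnfrsf18, Tnfrsf14, Cd27 and Traf1. A match describes letters only.

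In CD8 cells, Tnfrsf9, Tnfrsf4 and Tnfrsf18 were lower in Vav1CreTet2KO than in Tet2fl/fl, and Tnfrsf18 was lower in Cd4CreTet2KO. With both knockouts set against Tet2fl/fl at equal weight, Cd27 was lower as well. No gene of the 7 was higher in a knockout by the test. In CD4 cells none of the 7 passed the test in any comparison. In these bulk samples fewer cells of a type and less RNA per cell cannot be told apart. The plot of levels by library shows all 19 values of each gene.

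**Figure D1:**
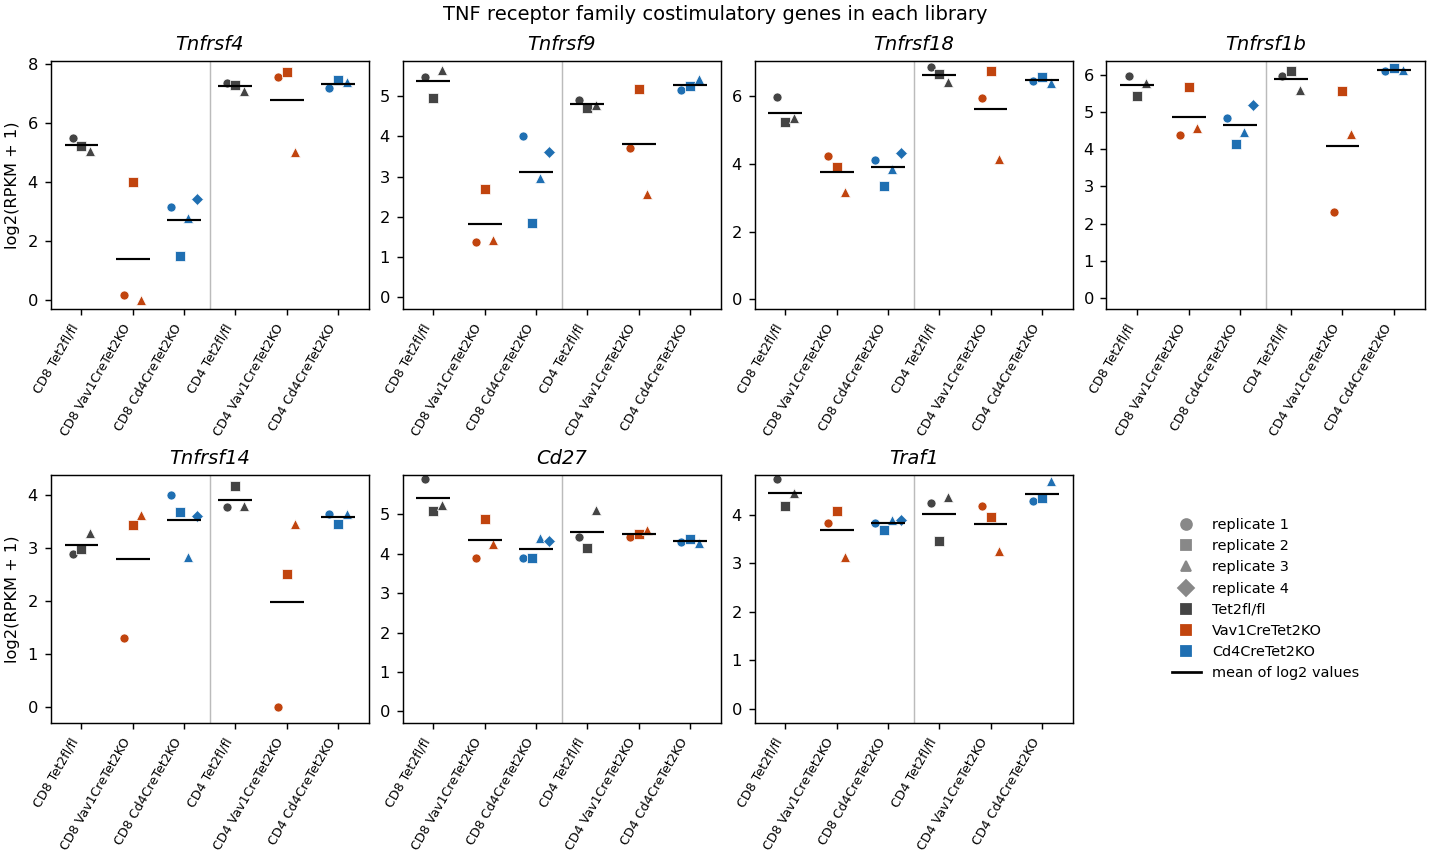
Level of each gene in each library as log2(RPKM + 1), by cell type and genotype; each point is 1 library, its shape is the replicate number, and black bars are means of the log2 values. In CD8 cells the knockout points of Tnfrsf4, Tnfrsf9 and Tnfrsf18 all lie below the Tet2fl/fl points, while in CD4 cells Vav1CreTet2KO replicates 1 and 3 spread downward for several genes.

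Tnfrsf9 encodes CD137, an inducible receptor of activated CD8 T cells. Tet2fl/fl CD8 libraries held 43.7, 30.0 and 49.5 RPKM. The level was 1.58, 5.51 and 1.68 RPKM for Vav1CreTet2KO and 15.2, 2.60, 6.85 and 11.3 RPKM for Cd4CreTet2KO. Every knockout library was below every Tet2fl/fl library. The difference in Vav1CreTet2KO was -3.53 on the log2(RPKM + 1) scale (SE 0.51, 11.6-fold lower, adjusted p = 0.0098 by limma). In Cd4CreTet2KO it was -2.25 (SE 0.48, adjusted p = 0.0631), which did not pass the threshold of 0.05. Both knockouts together differed from Tet2fl/fl by -2.89 (SE 0.43, adjusted p = 0.0068). The authors' deposited table lists a log fold change of -3.79 for Vav1CreTet2KO and -2.01 for Cd4CreTet2KO, with a false discovery rate of 0.000267 for the latter, so that Cd4CreTet2KO passes there and not in the limma fit.

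Tnfrsf4 encodes OX40, a costimulatory receptor that prolongs T cell responses. CD8 Tet2fl/fl libraries held 43.9, 36.9 and 32.7 RPKM. Vav1CreTet2KO libraries held 0.124, 14.96 and 0 RPKM, and Cd4CreTet2KO libraries 7.99, 1.86, 5.99 and 9.77 RPKM. The knockouts did not overlap the controls, and within Vav1CreTet2KO replicate 2 stood far above the rest. These values rest on 3, 280 and 0 recovered reads, and the library at 0 allows a level of up to 0.127 RPKM (3 reads, counting error only). The difference in Vav1CreTet2KO was -3.88 (SE 0.84, 14.7-fold lower on the log2(RPKM + 1) scale, adjusted p = 0.0414 by limma), and it depends on the pseudocount because 2 libraries are near 0. Without Vav1CreTet2KO replicate 2 it was -5.18 (adjusted p = 0.00317), without replicate 1 it was -3.27 (adjusted p = 0.119), and by edgeR on recovered reads -3.02 (adjusted p = 0.339), while DESeq2 gave no adjusted p. In the authors' deposited table the Vav1CreTet2KO log fold change of Tnfrsf4 is -3.02 with a false discovery rate of 0.0706, which does not pass there, while Tnfrsf18 passes for both knockouts (0.00089 and 0.00553) and Cd27 for neither (0.175 and 0.0615). In Cd4CreTet2KO the difference was -2.54 (SE 0.79, adjusted p = 0.174).

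Tnfrsf18 encodes GITR, a receptor of activated and regulatory T cells. Its CD8 levels were 61.7, 36.7 and 40.2 RPKM for Tet2fl/fl. They were 17.9, 13.9 and 8.07 RPKM for Vav1CreTet2KO and 16.5, 9.19, 13.3 and 18.95 RPKM for Cd4CreTet2KO. The knockout groups covered a similar range, and both lay wholly below the controls. Differences from Tet2fl/fl were -1.75 (SE 0.34, adjusted p = 0.0260) in Vav1CreTet2KO and -1.61 (SE 0.32, adjusted p = 0.0476) in Cd4CreTet2KO, both by limma. It was the gene of the 7 called in each knockout separately.

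Cd27 encodes a receptor that is present on resting T cells and supports their survival after priming. In CD8 Tet2fl/fl it was at 58.3, 32.8 and 36.4 RPKM. In Vav1CreTet2KO it was at 13.8, 28.6 and 18.0 RPKM, and in Cd4CreTet2KO at 13.8, 13.8, 20.2 and 18.8 RPKM. All knockout libraries lay below the controls. The differences were -1.06 (SE 0.31, adjusted p = 0.116) and -1.27 (SE 0.29, adjusted p = 0.0794), and both knockouts together gave -1.17 (SE 0.26, adjusted p = 0.0384 by limma). This call of Cd27 was lost with pseudocount 0.1, without a filter, by edgeR on recovered reads and without the libraries with macrophage markers (adjusted p of 0.0513, 0.0961, 0.0547 and 0.127, by limma except for edgeR), and with single replicates left out its adjusted p ranged from 0.0207 to 0.284, highest without Tet2fl/fl replicate 1. With the replicate block it was 0.0859 by limma, while DESeq2 kept the call (adjusted p = 0.00568). Tnfrsf4 with both knockouts together was lost under the same settings, at 0.0955, 0.142, 0.263 and 0.0885, and 0.0563 with the replicate block. Cd3e, a subunit of the T cell receptor complex, moved in the same direction: it was 202 to 298 RPKM for Tet2fl/fl, 148 to 200 RPKM for Vav1CreTet2KO and 131 to 180 RPKM for Cd4CreTet2KO, with differences of -0.52 (adjusted p = 0.333) and -0.67 (adjusted p = 0.266). Of 7 T cell marker genes, Cd3e among them, 3 had a negative difference in Vav1CreTet2KO (median 0.16) and 7 in Cd4CreTet2KO (median -0.37). The part of Cd3e and of the other-cell markers in the Cd27 difference was not tested.

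Tnfrsf1b, which encodes TNFR2, the TNF receptor of lymphocytes, was at 61.2, 42.1 and 53.6 RPKM in CD8 Tet2fl/fl. It was at 19.7, 50.0 and 22.7 RPKM for Vav1CreTet2KO, where replicate 2 reached the control range, and at 27.8, 16.6, 21.1 and 35.7 RPKM for Cd4CreTet2KO, all below the controls. The differences were -0.85 (SE 0.36, adjusted p = 0.253) and -1.06 (SE 0.34, adjusted p = 0.190), neither called. Traf1, the adaptor that binds TRAF2 beneath several of these receptors and is itself induced by NF-κB, was at 25.8, 17.2 and 21.1 RPKM for Tet2fl/fl. It was at 13.4, 15.9 and 7.74 RPKM for Vav1CreTet2KO and at 13.3, 12.0, 13.8 and 13.8 RPKM for Cd4CreTet2KO. The Traf1 ranges did not overlap the controls, yet the differences of -0.78 (SE 0.28, adjusted p = 0.175) and -0.64 (SE 0.26, adjusted p = 0.326) were not called.

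Tnfrsf14 encodes HVEM, which binds LIGHT as well as the inhibitory partners BTLA and CD160. It was the exception among the 7 in CD8 cells. It stood at 6.45, 6.94 and 8.74 RPKM for Tet2fl/fl, 1.47, 9.80 and 11.4 RPKM for Vav1CreTet2KO and 15.1, 11.9, 6.11 and 11.1 RPKM for Cd4CreTet2KO. Groups overlapped throughout. The differences were -0.27 (95% interval -1.38 to 0.85, adjusted p = 0.818) and 0.48 (95% interval -0.57 to 1.52, adjusted p = 0.754), and the first turned to 0.18 in edgeR and DESeq2 on recovered reads and to 0.47 without Vav1CreTet2KO replicate 1.

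Counted together in CD8 cells, 3 of the 7 genes were lower in Vav1CreTet2KO, where 1.01% of the 10224 genes tested were lower and 1.46% were called in either direction. In Cd4CreTet2KO 1 of the 7 was lower, against 0.489% of genes tested (0.567% in either direction). With both knockouts together 4 of the 7 were lower, against 1.8% (2.53% in either direction). Of all genes, 50 were lower and 8 higher in Cd4CreTet2KO, or 49 and 22 after TMM-based scaling, and with both knockouts together 75 of the 259 called were higher, or 131 after that scaling. It moved the all-gene median in Cd4CreTet2KO from -0.15 to 0.02 and left the same numbers of the 7 called. Every knockout library lay below every control for 5 of the 7 genes in Vav1CreTet2KO (12.9% of genes tested) and for 6 in Cd4CreTet2KO (14%). The median difference of the 7 was -1.06 in Vav1CreTet2KO and -1.27 in Cd4CreTet2KO, beside medians of -0.11 and -0.15 over all genes tested. All 7 passed the filter on low values (1 RPKM or more in 3 libraries or more). The calls lean on the controls: without CD8 Tet2fl/fl replicate 1 none of the 7 was called in any of these comparisons. The same held for all genes, of which 0 of 10007 were then called in each. Tnfrsf9 in Vav1CreTet2KO was then -3.47 (adjusted p = 0.0703 by limma). Without Tet2fl/fl replicate 2, Tet2fl/fl replicate 3 or Vav1CreTet2KO replicate 3, 1 gene, Tnfrsf9, was called in Vav1CreTet2KO. Over all genes 6, 24 and 68 were then higher and 37, 37 and 88 lower. Leaving out any single library of the Cd4CreTet2KO comparison, or both libraries with macrophage markers, ended the Tnfrsf18 call there, while both knockouts together still gave 2 called genes, Tnfrsf9 and Tnfrsf18, without the libraries with macrophage markers. Over all genes, leaving out a single library of the Cd4CreTet2KO comparison left 0 to 8 higher and 0 to 31 lower.

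Genes of T cell state and of regulatory T cells differed in the same CD8 libraries. With both knockouts together, 5 of 14 activation and exhaustion genes were called lower (median -1.14), 3 of 8 naive and resting genes higher (median 1.10) and 3 of 7 tested regulatory T cell genes lower (median -1.16), beside the median of -1.17 of the receptors and Traf1 and of -0.14 over all genes. In Vav1CreTet2KO the counts were 2 of 14 lower, 2 of 8 higher and 2 of 7 lower, and in Cd4CreTet2KO 2, 1 and 1. Negative differences numbered 8 of 14, 1 of 8 and 6 of 7 in Vav1CreTet2KO and 14, 0 and 7 in Cd4CreTet2KO. The 14 activation genes summed to 628 to 894.1 RPKM for Tet2fl/fl and 148.6 to 676.3 RPKM for Cd4CreTet2KO. Vav1CreTet2KO replicates 1 to 3 held 841, 931.2 and 365.4 RPKM. The 10 regulatory T cell genes summed to 114.8 to 184.6, 26 to 94.6 and 144.3, 169.3 and 44.8 RPKM in the same order. Of Vav1CreTet2KO, only replicate 3 lay below the controls in either sum. Foxp3, the defining factor of regulatory T cells, was at 2.23, 4.04 and 3.21 RPKM for Tet2fl/fl, 0.852, 0.818 and 0.477 RPKM for Vav1CreTet2KO and 2.56, 0.836, 1.52 and 1.99 RPKM for Cd4CreTet2KO. Ikzf2, named after its values were seen, was at 5.69 to 6.79 RPKM in the controls and at 0.23 to 2.29 RPKM and 1.15 to 4.03 RPKM in the knockouts, a fall of 1.89 (adjusted p = 0.0420 by limma) in Vav1CreTet2KO. Foxp3 was not called (-1.26, adjusted p = 0.0751). The part of these lists in the receptor differences was not tested.

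**Figure D2:**
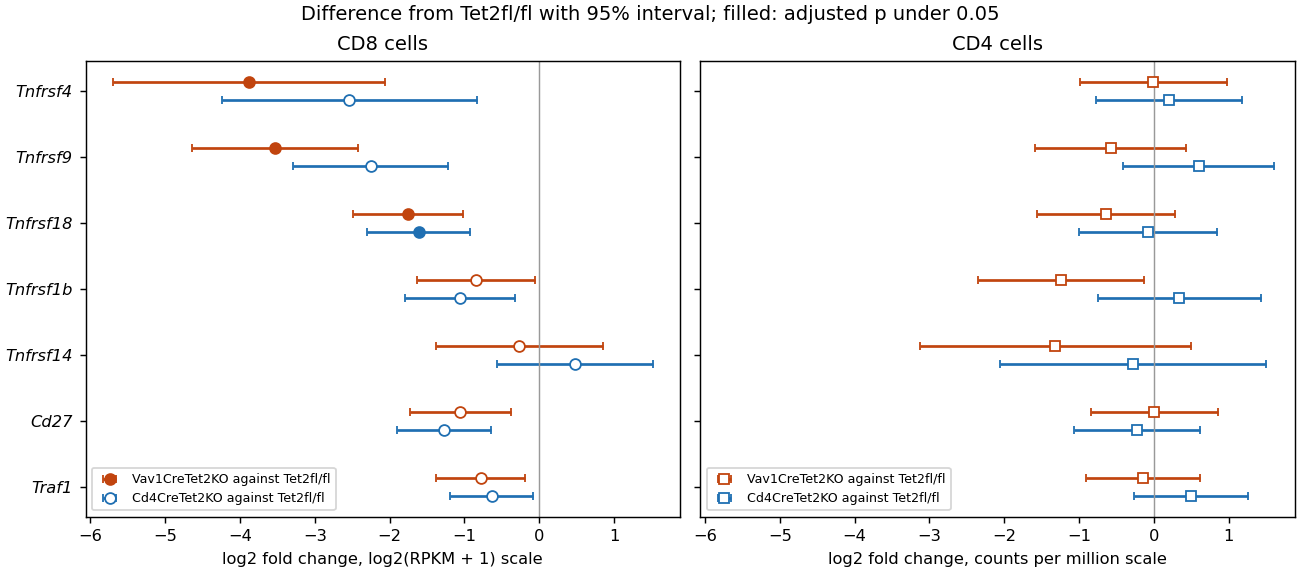
Log2 difference of each knockout from Tet2fl/fl with its 95% interval, in CD8 cells (left, limma on log2(RPKM + 1)) and CD4 cells (right, edgeR); filled symbols have an adjusted p under 0.05. Filled symbols appear only in the CD8 panel, for Tnfrsf4, Tnfrsf9 and Tnfrsf18 in Vav1CreTet2KO and for Tnfrsf18 in Cd4CreTet2KO.

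The CD8 knockouts were not told apart by any of the 7 genes. Vav1CreTet2KO minus Cd4CreTet2KO was -1.28 for Tnfrsf9 (95% interval -2.32 to -0.25, adjusted p = 0.721 by limma), -1.34 for Tnfrsf4 (95% interval -3.05 to 0.36) and -0.14 for Tnfrsf18 (95% interval -0.82 to 0.55). None of the 10224 genes was called in that comparison (0% by limma with 649 at an unadjusted p under 0.05; on recovered reads edgeR called 0, and DESeq2 27 higher and 68 lower). No gene of the 7 had all Vav1CreTet2KO libraries below or above all Cd4CreTet2KO libraries, as 2.46% and 2.07% of genes did. Both knockout comparisons share the same 3 control libraries.

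In CD4 cells Tnfrsf4 was the most abundant of the 7 per length. It was measured at 164, 158 and 135 RPKM for Tet2fl/fl, 191, 210 and 31.5 RPKM for Vav1CreTet2KO and 144, 177 and 166 RPKM for Cd4CreTet2KO. Vav1CreTet2KO replicate 3 was far below all other CD4 libraries. The differences from Tet2fl/fl were -0.01 (95% interval -0.99 to 0.97) and 0.20 (95% interval -0.78 to 1.18) by edgeR. Tnfrsf18 was at 116, 101 and 84.5 RPKM for Tet2fl/fl, at 61.0, 107 and 16.9 RPKM for Vav1CreTet2KO and at 86.7, 94.1 and 83.2 RPKM for Cd4CreTet2KO, with differences of -0.64 and -0.08. Tnfrsf9 was at 28.8, 24.9 and 26.6 RPKM, at 12.1, 34.9 and 4.92 RPKM and at 34.4, 37.0 and 41.9 RPKM in the same order, with differences of -0.58 and 0.60. For Tnfrsf9 all Cd4CreTet2KO libraries lay above the CD4 controls, as they did for 4.79% of the 9990 genes compared, and the adjusted p was 0.9998.

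Tnfrsf1b had the smallest p of the 7 between CD4 Vav1CreTet2KO and each other group. It was at 61.6, 67.7 and 47.1 RPKM for Tet2fl/fl, 3.97, 46.3 and 20.2 RPKM for Vav1CreTet2KO and 67.7, 71.2 and 68.4 RPKM for Cd4CreTet2KO. All Vav1CreTet2KO libraries were below both other groups, and replicate 2 came within a narrow margin of the lowest control. The difference was -1.24 from Tet2fl/fl (SE 0.52, adjusted p = 0.372) and -1.58 from Cd4CreTet2KO (SE 0.52, adjusted p = 0.285) by edgeR, and without a filter on low counts both passed (adjusted p = 0.0051 and 8.21e-05). Tnfrsf14 was at 12.7, 16.95 and 12.8 RPKM for Tet2fl/fl, 0, 4.72 and 9.91 RPKM for Vav1CreTet2KO and 11.4, 9.97 and 11.5 RPKM for Cd4CreTet2KO. The 0 is from the shallow replicate 1, where 3 reads would be 1.13 RPKM. Its differences of -1.32 (95% interval -3.13 to 0.50) and -0.27 (95% interval -2.05 to 1.504) were not called.

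Cd27 and Traf1 held closer levels in CD4 cells. Cd27 was at 20.4, 16.6 and 33.2 RPKM for Tet2fl/fl, 20.5, 21.8 and 23.2 RPKM for Vav1CreTet2KO and 18.6, 19.7 and 18.2 RPKM for Cd4CreTet2KO. Traf1 was at 18.0, 9.98 and 19.8 RPKM, 17.3, 14.7 and 8.63 RPKM and 18.5, 19.5 and 24.9 RPKM in the same order. Neither gene separated a knockout from the controls, and 95% intervals of their 4 differences ran from -1.07 at the lowest to 1.25 at the highest. In all, 0 of the 7 were called in CD4 cells, where 0.00738% of 13554 genes were called in Vav1CreTet2KO (1617 at an unadjusted p under 0.05), 0.0295% in Cd4CreTet2KO (339) and 0.0664% between the knockouts (1449). With both CD4 knockouts together 0% were called by edgeR (725 at an unadjusted p under 0.05), and 71 higher and 58 lower by DESeq2. DESeq2 called none of the 7 in CD4 cells. Without CD4 Vav1CreTet2KO replicate 3, 396 genes were called higher and 423 lower of 14409 against Tet2fl/fl, and 348 and 371 against Cd4CreTet2KO, with 0 of the 7 among them. In RPKM, libraries wholly below the controls occurred for Tnfrsf1b and Tnfrsf14 in Vav1CreTet2KO (14.2% of genes) and for Tnfrsf14 in Cd4CreTet2KO (9.24%). Against Cd4CreTet2KO, the Vav1CreTet2KO libraries lay wholly below for Tnfrsf1b, Tnfrsf14 and Traf1 (14.2% of genes) and wholly above for Cd27 (4.64%).

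None of 10 regulatory T cell genes was called in any CD4 comparison by edgeR, and their median was -0.80 in Vav1CreTet2KO and 0.23 in Cd4CreTet2KO. Foxp3 was at 76.6, 77.4 and 51.7 RPKM for Tet2fl/fl, 6.15, 53.6 and 20 RPKM for Vav1CreTet2KO and 52.6, 94.4 and 69.7 RPKM for Cd4CreTet2KO. Il2ra, the high-affinity IL-2 receptor chain, was at 52.0, 37.7 and 37.8 RPKM, 22.2, 68.7 and 12.5 RPKM and 42.9, 43.3 and 44.8 RPKM. Vav1CreTet2KO replicate 3 was low in Foxp3, Il2ra, Tnfrsf4, Tnfrsf18, Tnfrsf9 and Tnfrsf1b at once. Replicate 1 was below every control in Foxp3, Il2ra, Tnfrsf18, Tnfrsf9 and Tnfrsf1b but high in Tnfrsf4. The list of 10 regulatory T cell genes summed to 259 to 451 RPKM for Tet2fl/fl, 143 to 540 RPKM for Vav1CreTet2KO and 363 to 567 RPKM for Cd4CreTet2KO. Tnfrsf18, Tnfrsf4 and Tnfrsf1b are genes that regulatory T cells express. The part of regulatory T cell genes in the receptor values was not tested. The 12 dendritic cell genes, of which 0 were called in CD4 cells, summed to 469 to 860 RPKM for Vav1CreTet2KO against 107 to 267 RPKM elsewhere.

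**Figure D3:**
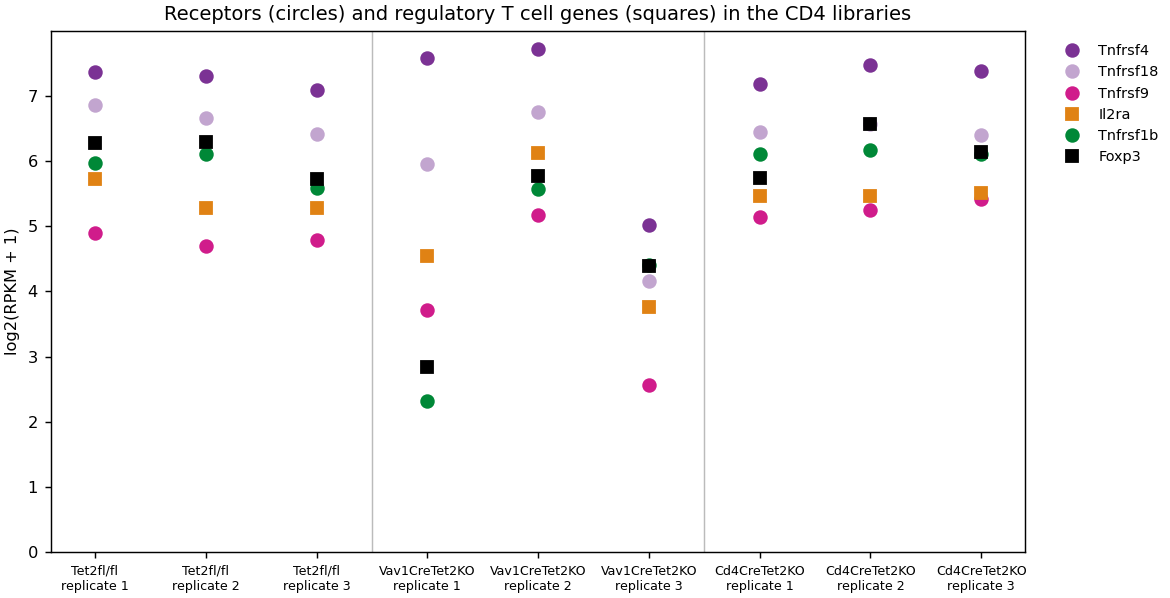
Levels in the 9 CD4 libraries as log2(RPKM + 1) of 4 receptors (circles) and of the regulatory T cell genes Foxp3 and Il2ra (squares). The points of Vav1CreTet2KO replicate 3 all sit low. In replicate 1 all but Tnfrsf4 lie below the Tet2fl/fl points, with Foxp3 and Tnfrsf1b dropping most.

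Set across cell types, the order of group means differed by gene, given as a description without a test. Tnfrsf4 ran from 162 ± 16.6 RPKM (SD, n = 3) in CD4 Cd4CreTet2KO through 152 ± 15.4 and 144 ± 98.1 RPKM in the other CD4 groups to 37.8 ± 5.68 RPKM in CD8 Tet2fl/fl, 6.40 ± 3.40 RPKM (n = 4) in CD8 Cd4CreTet2KO and 5.03 ± 8.60 RPKM in CD8 Vav1CreTet2KO. Only the step from CD8 Tet2fl/fl to the CD8 knockouts separated neighbours without overlap. The CD4 mean was 4.03 times the CD8 mean in Tet2fl/fl, 28.65 times in Vav1CreTet2KO and 25.4 times in Cd4CreTet2KO. Tnfrsf18 had the same arrangement, from 100.1 ± 15.5 RPKM in CD4 Tet2fl/fl to 46.2 ± 13.5 RPKM in CD8 Tet2fl/fl and 13.3 ± 4.94 RPKM in CD8 Vav1CreTet2KO.

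For Tnfrsf9 the order turned with genotype. In Tet2fl/fl the CD8 mean (41.05 ± 10.02 RPKM) was 1.53 times the CD4 mean (26.8 ± 1.97 RPKM), and the ranges did not overlap, by a narrow margin. In the knockouts the CD4 mean was higher, 17.3 ± 15.7 against 2.92 ± 2.24 RPKM for Vav1CreTet2KO and 37.8 ± 3.80 against 8.99 ± 5.46 RPKM for Cd4CreTet2KO. The Vav1CreTet2KO ranges overlapped, with CD4 replicate 3 at 4.92 RPKM and CD8 replicate 2 at 5.51 RPKM, and the Cd4CreTet2KO ranges did not. Cd27 and Traf1 were also highest in CD8 Tet2fl/fl, at 42.5 ± 13.8 and 21.4 ± 4.29 RPKM, but their neighbouring groups all overlapped. Tnfrsf1b was lowest in CD4 Vav1CreTet2KO (23.5 ± 21.4 RPKM) and highest in CD4 Cd4CreTet2KO (69.1 ± 1.87 RPKM), and Tnfrsf14 spanned 4.88 ± 4.96 to 14.15 ± 2.43 RPKM, with every neighbour overlapping for both.

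Whether a knockout acted differently in CD8 and CD4 cells was tested as an interaction over all 19 libraries. None of the 7 genes was called, against 0% of 11121 genes in Vav1CreTet2KO by limma (1024 at an unadjusted p under 0.05; edgeR called 1 higher and 3 lower) and 0.0629% in Cd4CreTet2KO. The largest interactions were for Tnfrsf4 and Tnfrsf9. In Vav1CreTet2KO the CD8 effect minus the CD4 effect was -3.40 for Tnfrsf4 (95% interval -5.76 to -1.04, adjusted p = 0.373 by limma) and -2.56 for Tnfrsf9 (95% interval -4.18 to -0.93, adjusted p = 0.352). In Cd4CreTet2KO the values were -2.63 (95% interval -4.91 to -0.35, adjusted p = 0.791) and -2.73 (95% interval -4.30 to -1.15, adjusted p = 0.410). Tnfrsf14 was positive in both, at 1.65 and 0.81. Tnfrsf4 was called in Vav1CreTet2KO without CD8 Vav1CreTet2KO replicate 2 (-4.70, adjusted p = 0.0318), and Tnfrsf9 without CD4 Vav1CreTet2KO replicate 3 (-3.18, adjusted p = 0.0368).

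The ligands of these receptors were measured in the same cells. Tnfsf4, which encodes the OX40 ligand, was at 11.5, 2.27 and 4.43 RPKM in CD8 Tet2fl/fl, 0, 0.897 and 0 RPKM for Vav1CreTet2KO and 2.07, 0.441, 1.31 and 1.60 RPKM for Cd4CreTet2KO. Tnfsf9, the ligand of CD137, was at 8.70, 6.03 and 8.22 RPKM, 0.230, 1.45 and 2.03 RPKM and 3.26, 1.44, 0.886 and 3.16 RPKM. Both lay wholly below the controls in both knockouts. They fell by 2.29 (SE 0.48, adjusted p = 0.0366) and 2.03 (SE 0.41, adjusted p = 0.0302) on the log2 scale in Vav1CreTet2KO by limma, the 2 called of 9 tested ligands and partners. In Cd4CreTet2KO none of the 9 was called, and Tnfsf9 had a difference of -1.51 (adjusted p = 0.101). The median of the 9 was -0.18 in Vav1CreTet2KO and -0.62 in Cd4CreTet2KO.

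**Figure D4:**
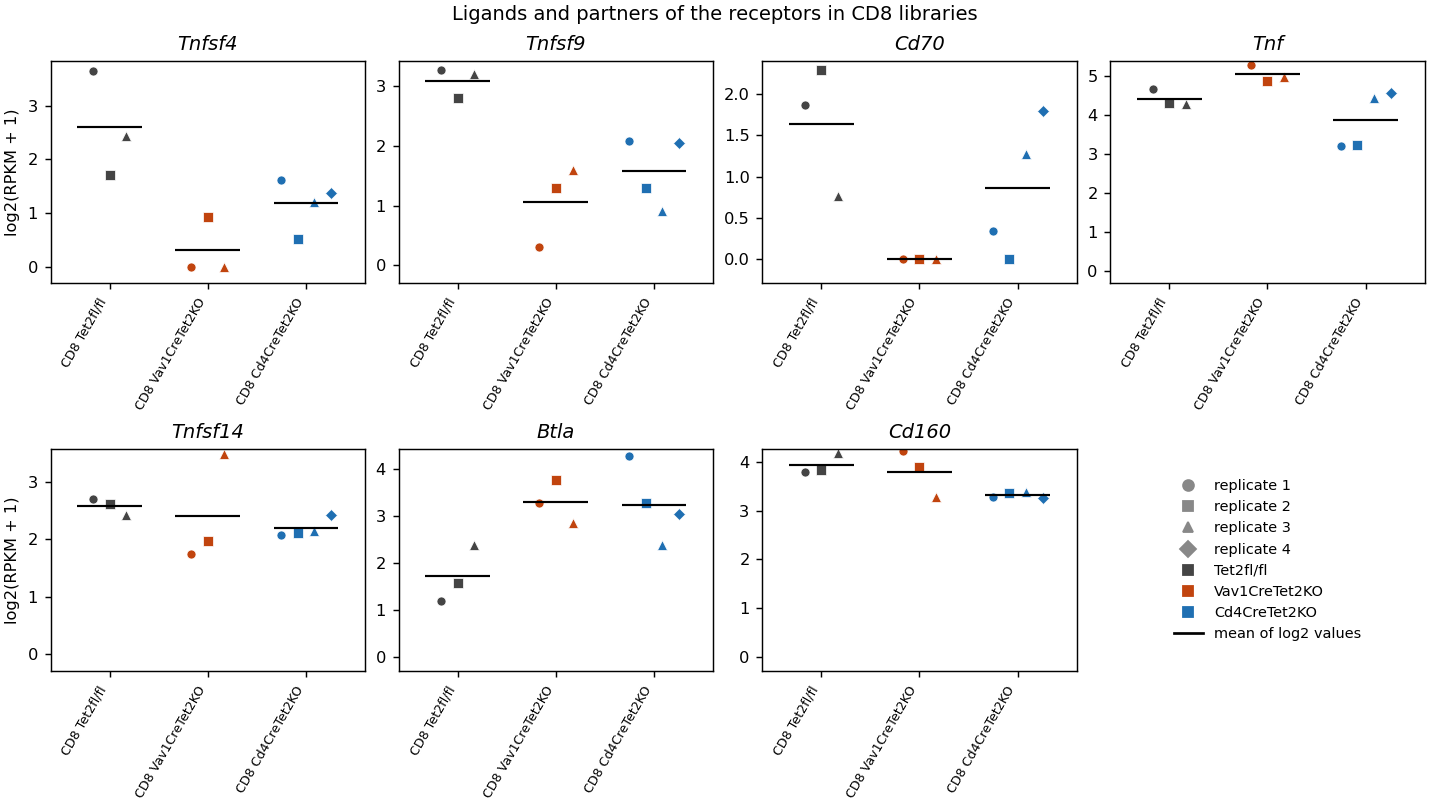
Levels in the 10 CD8 libraries as log2(RPKM + 1) of ligands and binding partners of the receptors; each point is 1 library, its shape the replicate number, and bars are means of the log2 values. Tnfsf4 and Tnfsf9 lie lower in both knockouts, Cd70 is at 0 in the Vav1CreTet2KO libraries, and Btla lies above the Tet2fl/fl libraries in every knockout library but 1.

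The remaining ligands and partners did not pass the test in CD8 cells. Cd70, the ligand of CD27, was at 2.67, 3.90 and 0.693 RPKM for Tet2fl/fl, 0 in each Vav1CreTet2KO library and 0.267, 0, 1.43 and 2.48 RPKM for Cd4CreTet2KO (Vav1CreTet2KO adjusted p = 0.123). Btla, the inhibitory partner of HVEM, was at 1.31, 1.99 and 4.25 RPKM for Tet2fl/fl, 8.69, 12.7 and 6.29 RPKM for Vav1CreTet2KO and 18.4, 8.78, 4.20 and 7.33 RPKM for Cd4CreTet2KO, with differences of 1.58 (adjusted p = 0.105) and 1.52 (adjusted p = 0.134). Tnfsf18, the GITR ligand, was at 0 in 9 of the 10 CD8 libraries. In CD4 cells no ligand or partner was called in any comparison.

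Among 9 other TNF family ligands, of which 5 were tested in CD8 cells, Cd40lg, the helper ligand of CD40, was higher in Vav1CreTet2KO by 3.04 (SE 0.43, adjusted p = 0.0098 by limma). It stood at 0.0945, 1.35 and 0 RPKM for Tet2fl/fl, 12.5, 10.9 and 7.82 RPKM for Vav1CreTet2KO and 0.647, 2.34, 0.914 and 3.30 RPKM for Cd4CreTet2KO. Cd4, the co-receptor of the other lineage, was at 0 in CD8 Tet2fl/fl, at 0.0955, 1.59 and 0.674 RPKM for Vav1CreTet2KO and at 0 to 7.68 RPKM for Cd4CreTet2KO, and its part in the Cd40lg difference was not tested. Tnfsf10, which encodes TRAIL, fell by 1.502 with both knockouts together (SE 0.32, adjusted p = 0.0320). No gene was called among 12 tested other receptors of the family, 13 TRAF adaptors and partners or 22 NF-κB pathway genes in either CD8 knockout comparison with controls. Medians of these lists were 0.16, -0.24 and -0.18 in Vav1CreTet2KO and 0.26, -0.40 and -0.37 in Cd4CreTet2KO. Closest to the threshold were Nfkb1 in Vav1CreTet2KO (-1.15, SE 0.31, adjusted p = 0.0827) and Nfkb2 in Cd4CreTet2KO (-1.01, SE 0.30, adjusted p = 0.158). In CD4 cells these 3 lists also held no called gene.

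Across the 10 CD8 libraries the 7 genes varied together apart from Tnfrsf14. Pearson's r on log2(RPKM + 1) was 0.929 between Tnfrsf4 and Tnfrsf9, 0.879 between Tnfrsf9 and Tnfrsf18 and 0.910 between Tnfrsf18 and Traf1, and it was 0.216 or lower between Tnfrsf14 and any other of the 7. These values contain the genotype difference: with group means removed, r was 0.791, 0.570 and 0.772. Among all pairs without Tnfrsf14 it then ran from 0.306 (Tnfrsf18 and Cd27) to 0.906 (Tnfrsf4 and Tnfrsf1b). Between Tnfrsf4 and Tnfrsf18 it went from 0.802 to 0.419. In the 9 CD4 libraries Tnfrsf4, Tnfrsf9 and Tnfrsf18 were again alike (0.798 to 0.921), while Tnfrsf1b was closest to Tnfrsf14 (0.887). Points share library depth and cell make-up, so the values describe these libraries only.

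Among all genes passing the filter, those most like Tnfrsf9 in CD8 cells were Cib2 (r = 0.976), Nsd2 (0.964) and Ikzf2 (0.962, the Helios transcription factor). Genes among the 3 most like Tnfrsf4 included Smarca4 (0.986) and Klc1 (0.978), and those among the 3 most like Tnfrsf18 included Igfbp7 (0.983) and Bcor (0.983). For Tnfrsf1b they included Gramd1b (0.971) and Rbpj (0.969). For Cd27 the list held Ptpn7 (0.969), Abca2 (0.968) and Cd3e (0.960). In CD4 cells the nearest genes to Tnfrsf9 included Il2ra (0.934), those to Tnfrsf4 included Tnfrsf18 (0.921), and those to Tnfrsf1b were Pole (0.994), Ikzf4 (0.992, the Eos transcription factor of regulatory T cells) and Wdr59 (0.985). The gene of highest r was Pdpk1 (Tnfrsf14, 0.960) and Zc3h7b (Traf1, 0.976) in CD8 cells, and Ktn1 (Tnfrsf18, 0.971), Chmp7 (Tnfrsf14, 0.994), Zfp710 (Cd27, 0.941) and Dnmt3a (Traf1, 0.887) in CD4 cells. With 9619 genes compared over 10 CD8 libraries and 9375 over 9 CD4 libraries, high values arise easily and carry no test.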

How the data were processed

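Bulk RNA of sorted T cells was read on a HiSeq X in paired ends of 150 bp, per the series' design text, after a stranded total RNA kit, per the labels' protocols. The deposited CD4 table held counts per gene and RPKM, and the deposited CD8 table RPKM only, per the file headers. The authors scaled RPKM to reads of each library: values in both tables gave a whole number of reads as the denominator. Both tables hold the authors' log fold change and false discovery rate, copied for comparison. The submitters' processing notes name GRCm38 and mm10, but of 25582 gene IDs matched to GRCm38 only 564 had the same start and end; aligner and counter: not given in the sources used here. Scripts read 28 columns with values per sample and left 18 unused.

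CD8 values were tested with limma 3.58.1 (trend) on log2(RPKM + 1) for genes that reached 1 RPKM in 3 libraries or more, since no CD8 counts were in the table. CD4 counts were tested with edgeR 4.0.16 (filterByExpr with a minimum count of 10 and total of 15, TMM, quasi-likelihood). The interaction was fitted with limma on RPKM of all 19 libraries, although the authors made the tables separately. All libraries of a cell type entered 1 fit, with Benjamini-Hochberg adjustment over all genes at 0.05. Reads recovered from CD8 RPKM (100% of 134905 values whole within 0.01) served for depth and for edgeR and DESeq2 1.42.0 as alternatives. A limma fit and an edgeR fit of Vav1CreTet2KO against Tet2fl/fl were tried on simulated counts. The other steps had no such test. Replicates are separate animals; PCR reads carry no molecular identifiers in these values, so read floors cover counting error only. Replicate numbers did not pair samples (r from -0.091 to 0.104 over 18 pairs); 8 CD8 and CD4 pairs from the same animal (r from -0.067 to 0.365) were blocked as an alternative in the interaction, and the block changed no call among the 7 genes.

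The 7 genes and all lists were chosen with earlier results of these data known. Named genes were the 7, Tet2, up to 4 called genes of each pathway list or the 2 of smallest p, markers that moved with a group, and the 3 genes most correlated with each of the 7, without unnamed models, pseudogenes and receptor segments. Some of these correlated genes are not reported here. Alternatives were pseudocount 0.1, no filter, other scalings and tools, only the groups compared, a block, and each replicate left out.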

Additional observations from a re-analysis of the deposited data

How the results depend on the processing

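No called gene of the 7 changed direction under any setting run. In CD8 Vav1CreTet2KO 3 genes were called. Without a filter on low values 0 were, and with only the groups compared 1 was. With pseudocount 0.1, with edgeR on recovered reads and with the replicate block 2 were called. With DESeq2 on recovered reads 4 were, and with single replicates left out 0 to 3. In CD8 Cd4CreTet2KO 1 was called; 0 were with pseudocount 0.1, without a filter, with the replicate block, without both libraries with macrophage markers and with any single replicate left out, but 3 were with DESeq2 on recovered reads and 4 with only the groups compared. With both knockouts together 4 were called; 2 were with pseudocount 0.1, without a filter, with edgeR on recovered reads, with the replicate block, without the macrophage marker libraries, and (chosen after seeing the data) without these and Vav1CreTet2KO replicate 1, and 0 to 5 with single replicates left out. In CD4 cells 0 were called, but 1 without a filter in Vav1CreTet2KO against either group. In the Vav1CreTet2KO interaction 0 were called, and 0 to 1 with single replicates left out. The replicate block changed no other count of the 7 by over 1.5 times. Over all genes the block by replicate number took the lower calls from 103 to 58 in CD8 Vav1CreTet2KO and those between the CD4 knockouts from 3 to 8. It gave 69 higher and 113 lower with both CD8 knockouts together, against 259 calls in all without it. In the Vav1CreTet2KO interaction the block was by animal, and it took the lower calls from 0 to 8. Over all genes, CD8 Vav1CreTet2KO gave 46 higher and 103 lower, against 496 and 435 with DESeq2 on recovered reads, 40 and 51 with edgeR, 33 and 54 with pseudocount 0.1 and 0 and 20 without a filter. CD8 Cd4CreTet2KO gave 8 and 50, against 402 and 204 with DESeq2, 54 and 232 with only the groups compared and 0 and 0 with the replicate block. CD4 Vav1CreTet2KO gave 1 and 0, against 332 and 249 with DESeq2 and 274 and 109 without a filter. The cause of these differences was not tested.

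Differences near 0 turned sign without a call. Tnfrsf14 in CD8 Vav1CreTet2KO became 0.18 with either count tool, and -0.05 with both knockouts together without the macrophage marker libraries, which also took Cd27 between the CD8 knockouts to -0.02. In CD4 Vav1CreTet2KO, Tnfrsf4 became 0.02 with DESeq2, RLE factors or no filter, and Cd27 -0.04 with limma and -0.05 with only the groups compared. With both CD4 knockouts together, Tnfrsf4 became -0.19 with limma, and Tnfrsf9 -0.01 with DESeq2 or RLE factors, -0.25 with limma and -0.11 with the replicate block. Leaving out single replicates gave ranges that cross 0. In CD8 cells these were -0.69 to 0.47 for Tnfrsf14 in Vav1CreTet2KO, -0.11 to 0.47 for Tnfrsf14 with both knockouts together, and, between the knockouts, -0.37 to 0.16 for Tnfrsf18, -0.19 to 0.46 for Tnfrsf1b, -0.06 to 0.44 for Cd27 and -0.34 to 0.13 for Traf1. In CD4 Vav1CreTet2KO they were -0.33 to 0.45 for Tnfrsf4, -0.20 to 0.39 for Cd27 and -0.40 to 0.09 for Traf1. In CD4 Cd4CreTet2KO they were -0.16 to 0.01 for Tnfrsf18 and -0.42 to 0.17 for Cd27, and between the CD4 knockouts -0.53 to 0.25 for Tnfrsf4. With both CD4 knockouts together they were -0.06 to 0.33 for Tnfrsf4, -0.46 to 0.23 for Tnfrsf9, -0.31 to 0.28 for Cd27 and -0.07 to 0.41 for Traf1. Depth limits CD4 Vav1CreTet2KO replicate 1, where 3 reads of Tnfrsf14 would be 1.13 RPKM.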
